A study of Mus musculus with 8 samples.

Results

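Receptors for interleukins, interferons, chemokines and ligands of the tumour necrosis factor (TNF) family decide which outside signals a T cell can hear, and their transcripts were examined here for N6-methyladenosine (m6A). The set holds the genes whose symbols in the deposited peak lists begin with Il and a number followed by r, with Ifnar or Ifngr, with Ccr or Cxcr and a number, or with Tnfrsf and a number. Il2ra, Il7r, Ccr7, Ccr9, Cxcr3, Cxcr4, Tnfrsf4 and Tnfrsf9 were left out by the rule. This gave 55 genes of 12413 genes with any peak. The names fit the gene group except for Il1rn, which encodes a secreted antagonist of the interleukin-1 receptor and not a receptor.

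The data come from mouse primary T cells grown in medium with fetal bovine serum. For 24 h they were treated with an agent named PTC, which the labels leave undescribed, or kept as controls. Methylated RNA was immunoprecipitated from 2 samples per condition and sequenced beside 2 input samples per condition, 8 samples in all, and whether they stem from different animals or cultures is not labelled. The data hold 1 peak list per condition, with 23368 peaks in 10859 genes for PTC and 29586 peaks in 11390 genes for control, so each value below exists once per condition and no difference between the lists has a replicate check. RNA levels are not analysed here, and in bulk cells a lower methylation, less of the transcript and fewer cells of a type that carries it cannot be told apart.

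m6A is the most common internal modification of messenger RNA. It is written mainly near stop codons and in long last exons, at adenosines inside the consensus DRACH, of which GGACT is the best known form, and it is read by proteins that change the stability and translation of a transcript. In T cells m6A is known to act on cytokine signalling: loss of the methyltransferase subunit METTL3 in mouse T cells slows the decay of Socs transcripts, whose products damp signalling below interleukin receptors.

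All 13 T cell markers examined had a peak in at least 1 list and 12 had peaks in both, where 79.2% of all listed genes were in both. Their strongest −log10 FDR (false discovery rate, the authors' value for each peak) ran from 4.42 to beyond what the file can hold in the PTC list. In the control list it ran from 3.93 to 271. Such counts do not tell cell types apart, since transcripts of other blood cells were listed too. Of 8 B cell markers 7 were listed, 6 of them in both lists. Their strongest −log10 FDR was 2.24 to 272 in the PTC list and from 5.37 to beyond what the file can hold in the control list. Cd79a was listed in neither. Of 9 myeloid markers 6 were listed, 5 of them in both lists, at 11.4 to 112 for PTC and 14.2 to 31.1 for control, and Itgam, Adgre1 and Fcer1g were listed in neither. Of 8 erythroid and platelet markers 5 were listed, with Hbb-bs, Hbb-bt, Klf1 and Pf4 in the PTC list only, at 1.91 to 3.91, and Alas2 in both lists. All 4 natural killer cell markers were listed, with Klrb1c and Klrd1 in both lists and Ncr1 (2.45) and Klra7 (4.19) in the control list only. The part of such cells in the receptor peaks was not tested.

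GGACT sites inside the strongest peaks show where methylation could sit in these transcripts. In the strongest peak of each gene and list the letters GGACT, read on the transcript strand only, occurred at 83 distinct places in 39 genes, 35 in coding sequence and 48 in the 3' untranslated region (UTR), and 74 of the 83 lay inside peaks of both lists. The sites below belong to receptors on which the results turn, with GGACT in capitals, its flanks in lower case, positions on GRCm38 and the sequence from GENCODE M21 transcripts. They are matches of letters, not measured methylation sites.
Il2rb (chr15:78481703-78481723, minus strand, the A 235 nt before the stop codon): tgcatgagGGACTtccctccc
Il2rb (chr15:78481453-78481473, minus strand, 15 nt after the stop codon): ggtggccaGGACTgggatcca
Il2rb (chr15:78481372-78481392, minus strand, 96 nt after the stop codon): actgctgaGGACTgtcctggc
Il2rb (chr15:78480630-78480650, minus strand, 838 nt after the stop codon): accgagctGGACTtgagtgta
Il21r (chr7:125632758-125632778, plus strand, 221 nt before the stop codon): aaggaaggGGACTggacagca
Ifngr1 (chr10:19609488-19609508, plus strand, 188 nt before the stop codon): tccatatcGGACTtggaatct
Tnfrsf1b (chr4:145215047-145215067, minus strand, 732 nt after the stop codon): aatctcagGGACTgtagagtt
Tnfrsf1b (chr4:145214513-145214533, minus strand, 1266 nt after the stop codon): attggaaaGGACTgttcctgg
Il12rb1 (chr8:70820719-70820739, plus strand, 140 nt before the stop codon): gctagggaGGACTgtccccgt
Il12rb1 (chr8:70820530-70820550, plus strand, 329 nt before the stop codon): aaccctgaGGACTtcccggag
Il12rb1 (chr8:70821348-70821368, plus strand, 489 nt after the stop codon): atacgtctGGACTcagtttcc

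The 4 sites of Il2rb, the single sites of Il21r and Ifngr1 and both sites of Tnfrsf1b lay inside peaks of both lists. Of the 3 sites of Il12rb1, the first was inside peaks of both lists and the other two only inside the wider control peak. The gene with the most sites was Ifnar2, a chain of the type I interferon receptor, with 8 in each list.

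Nearly all of the receptors carried peaks in both conditions. Of the 55 genes, 50 were in both lists, or 90.9% (exact Clopper-Pearson 95% interval 80.0 to 97.0, counting error only), against 79.2% of all listed genes. In the PTC list only there were 3 genes (5.45%, against 8.24% of all listed genes), and in the control list only there were 2 (3.64%, against 12.5%). The receptors had 109 peaks in the PTC list and 116 in the control list. That is a mean of 2.06 per listed receptor gene in the PTC list and 2.23 in the control list, where the means over all genes were 2.15 for PTC and 2.60 for control.

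**Figure D1:**
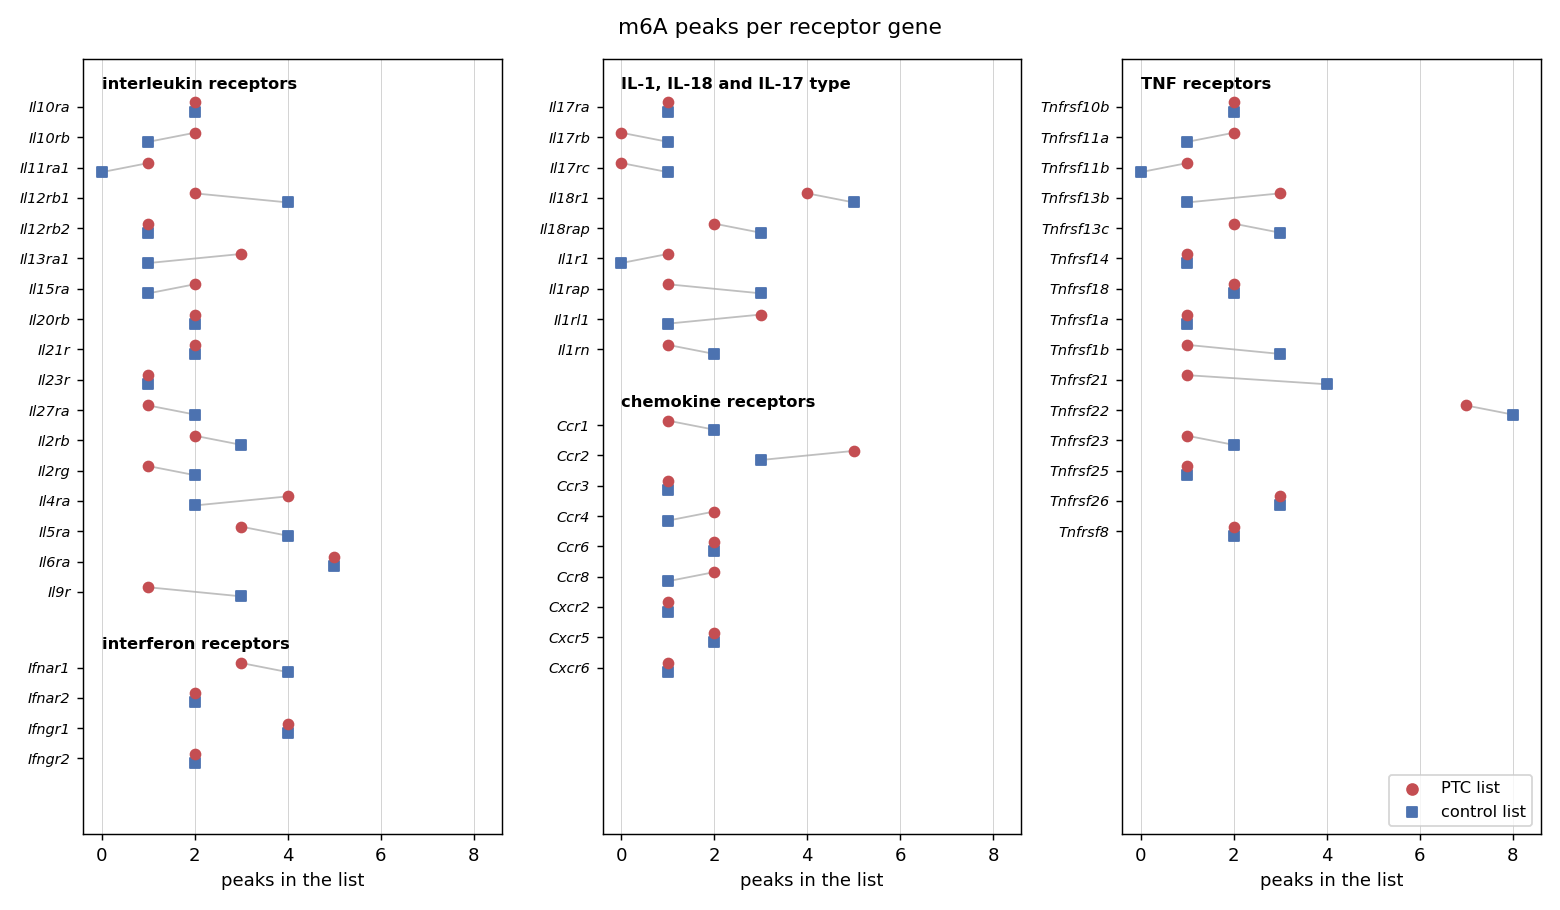
Number of m6A peaks (horizontal axis) of each receptor gene in the PTC list (red circles) and the control list (blue squares), by family, with 1 list per condition and so no error bars; 1 chemokine receptor is not drawn. Most pairs of symbols lie at or next to each other, Tnfrsf22 has the most peaks with 7 in the PTC list and 8 in the control list, and 5 genes have a symbol at 0.

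Each of the 5 genes in 1 list only rested on 1 weak peak. In the PTC list only, Il11ra1, the binding chain for interleukin-11, had a peak of −log10 FDR 3.54, Il1r1, the signalling receptor for interleukin-1, one of 2.86, and Tnfrsf11b, a soluble decoy (osteoprotegerin) for the bone cytokine RANKL, one of 2.24. In the control list only, Il17rb, a receptor for interleukin-25, had a peak of 3.32, and Il17rc, a partner chain of the interleukin-17 receptor, one of 1.73. None reached 5, the value used below to call a peak strong. Of the 50-base stretches of the Il11ra1 peak, 45.4% also occur in transcripts of Gm13305, so those reads could belong to either gene.

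Among the 50 receptors in both lists, 10 had more PTC than control peaks (20.0%, against 16.0% of all genes in both lists), 17 had fewer (34.0%, against 41.6%) and 23 had the same number (46.0%, against 42.4%). The transcript length under peaks was 889 nt per gene in the PTC list and 1183.5 nt in the control list at the median, where the medians over all genes in both lists were 738.5 nt for PTC and 900.0 nt for control. Of the 50 genes, 34 had less length under PTC peaks (68.0% of all genes in both lists did), 15 had more (27.8% of all) and 1 had the same. Of the length under PTC peaks a median of 91.3% was also under control peaks (85.3% over all genes), and of the length under control peaks a median of 79.0% was also under PTC peaks (67.3% over all genes). At least 90% of the PTC length was shared in 27 of the 50 genes (41.1% of all genes in both lists), and at least 90% of the control length in 9 of the 50 (18.8% of all).

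**Figure D2:**
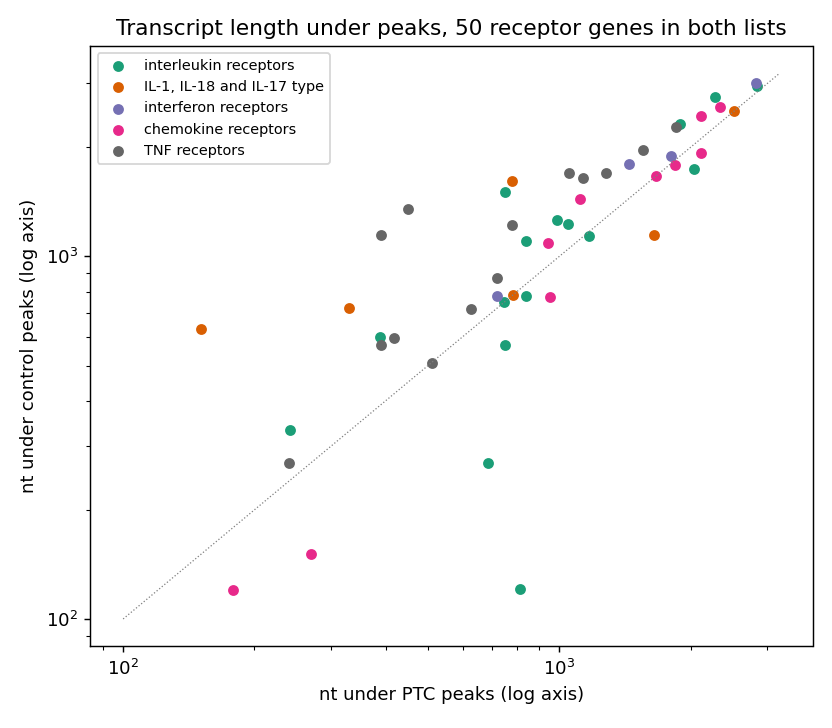
Transcript length in nt under PTC peaks (horizontal, log axis) and under control peaks (vertical, log axis) for the 50 receptor genes in both lists, coloured by family; the dotted line marks equal length. There are 34 points above the line, where control peaks cover more, and 15 below it.

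The same places were called in both lists for most receptor peaks. Of the 109 PTC peaks, 88 were overlapped by a control peak of at least 1 bp (80.7%, interval 72.1 to 87.7, against 78.8% of all PTC peaks), and of the 116 control peaks, 83 were overlapped by a PTC peak (71.6%, interval 62.4 to 79.5, against 60.2% of all control peaks). Receptor peaks without a partner were narrower and weaker. The same values over all peaks without a partner were not computed, so whether this is particular to receptors was not tested. In the PTC list the 21 of them had a median width of 150 nt and a median −log10 FDR of 2.86, against 390.5 nt and 9.10 for the 88 with a partner. In the control list the 33 without a partner had medians of 179 nt and 3.11, against 509 nt and 12.1 for the 83 with a partner.

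**Figure D3:**
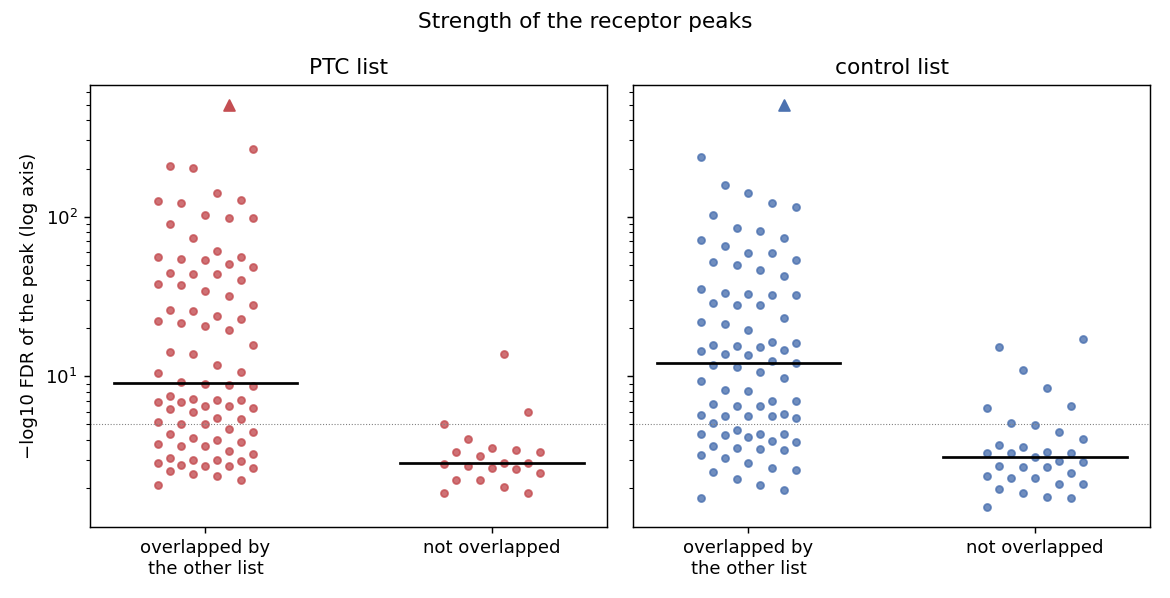
−log10 FDR (log axis) of each receptor peak in the PTC list (left) and the control list (right), split by overlap with the other list; lines are medians, the dotted line marks 5, and triangles at the top are the Il2rb peaks, whose FDR is too small for the lists to hold. Of the receptor peaks without overlap, 3 of 21 PTC peaks and 7 of 33 control peaks reach 5. With or without overlap, 59.8% of all PTC peaks and 53.4% of all control peaks do.

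Those 10 strong peaks without a partner were spread over 10 genes. The strongest in the PTC list was on Ifnar1, at chr16:91485238-91489727 over the 5' UTR and the start of the coding sequence, with a −log10 FDR of 13.7. Tnfrsf26, with 6.02 in its 3' UTR, and Il1rl1, the interleukin-33 receptor, with 5.00 in its last coding exon, made up the PTC group. In the control list the strongest was on Il2rb at chr15:78485805-78486461, with its midpoint in exon 7 of 10 and a −log10 FDR of 17.1. Ifngr1 followed with 15.2 at its first exon, Il12rb1 with 11.0 over exon 12 of 16 and Il10ra with 8.49 over exon 3 of 7. Il18rap (6.55), Tnfrsf1b (6.29) and Il1rn (5.13) had theirs in the 3' UTR. Of these control peaks 4 of 7 thus had a midpoint in coding sequence, away from the stronger peak that the same gene had in both lists. Of all control peaks in protein-coding genes, 42.2% had a midpoint in coding sequence.

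The interleukin receptors, 17 genes with 35 PTC and 36 control peaks, included the strongest peak of the set in each list. Il2rb, the signalling chain shared by the receptors for interleukin-2 and interleukin-15, had a peak of 1500 nt at chr15:78480425-78481924 with the same borders in both lists. It spans the end of the coding sequence and the first part of the 3' UTR, and its FDR was too small to be held in either list. The fold enrichment there, the authors' ratio within each list, was 3.82 in the PTC list and 3.40 in the control list. Il4ra, the chain that binds interleukin-4, reached a −log10 FDR of 202 in the PTC list and 237 in the control list. Il21r, the receptor for interleukin-21, reached 207 in the PTC list and 158 in the control list. FDR values depend on the depth of each list, which is unknown, and are given for rank within a list only.

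Il2rg, the common gamma chain that Il2rb, Il4ra, Il9r and Il21r pair with, was placed differently from its partners. Its strongest peak lay over exons 1 and 2 of 8 (chrX:101267677-101268255 in the PTC list and chrX:101267588-101268255 in the control list), with −log10 FDR of 141 for PTC and 115 for control, and its midpoint was 999 nt before the stop codon for PTC and 954 nt for control. Of the 50-base stretches of its peaks, 14.4% are also found in Gm20489. Il15ra, which presents interleukin-15, had its strongest peak past the stop codon at 73.8 in the PTC list and 59.4 in the control list. Il9r had a single PTC peak of 990 nt across the stop codon, where the control list had 3 narrower peaks, and the strongest reached 6.56 in each list. Only that one was strong in either list, so the numbers of strong peaks are equal.

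Receptors of the interleukin-12 group, which steer T helper fates, had their strongest peaks at overlapping places in both lists. Il12rb1, shared by the receptors for interleukin-12 and interleukin-23, had 2 PTC and 4 control peaks. Both PTC peaks were overlapped by control peaks, at the first exons with a −log10 FDR of 2.55 for PTC and 15.7 for control, and at the stop codon with 60.6 for PTC and 65.5 for control. The 2 further control peaks had midpoints in exons 9 and 12. Il12rb2, the second chain for interleukin-12, had 1 peak at the stop codon in each list, at 97.9 for PTC and 102 for control. It shares 720 nt in the PTC list with a peak of Serbp1 on the other strand, and since use of strand in the counting is not given, the gene it belongs to is uncertain. Il23r had 1 weak peak in each list, at 2.86 for PTC and 2.50 for control, and Il27ra, the interleukin-27 receptor, had 1 PTC peak and 2 control peaks, the strongest at 37.3 for PTC and 23.1 for control.

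Il10ra and Il10rb, the chains of the receptor for the anti-inflammatory interleukin-10, both had peaks across the stop codon in both lists. For Il10ra the PTC list held 2 peaks of 1555 and 718 nt, which lie almost wholly (98.7% of their length) under a single control peak of 2511 nt. The strongest reached 102 in the PTC list and 121 in the control list. Il10rb had 2 PTC peaks and 1 control peak, with 37.8 for PTC and 28.1 for control at the stop codon. Il6ra, which binds interleukin-6, had 5 peaks in each list, all in its 3' UTR, the strongest at 48.3 for PTC and 32.3 for control. Il5ra had 3 PTC and 4 control peaks in the 3' UTR, and Il20rb 2 in each list with no control peak above 2.29.

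A further pair of interleukin receptors had more PTC peaks. Il4ra had 4 peaks in the PTC list and 2 in the control list. The widest of each list, 2389 nt for PTC and 2419 nt for control, began within 30 nt of each other and ended at the same base, 3 of the 4 PTC peaks were overlapped, and the fourth had a −log10 FDR of 3.36. Counting strong peaks alone, PTC and control had 2 each. Il13ra1, which joins Il4ra in the receptor for interleukin-13, had 3 PTC peaks and 1 control peak, all of them weak: the strongest reached 4.34 for PTC and 1.93 for control.

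**Figure D4:**
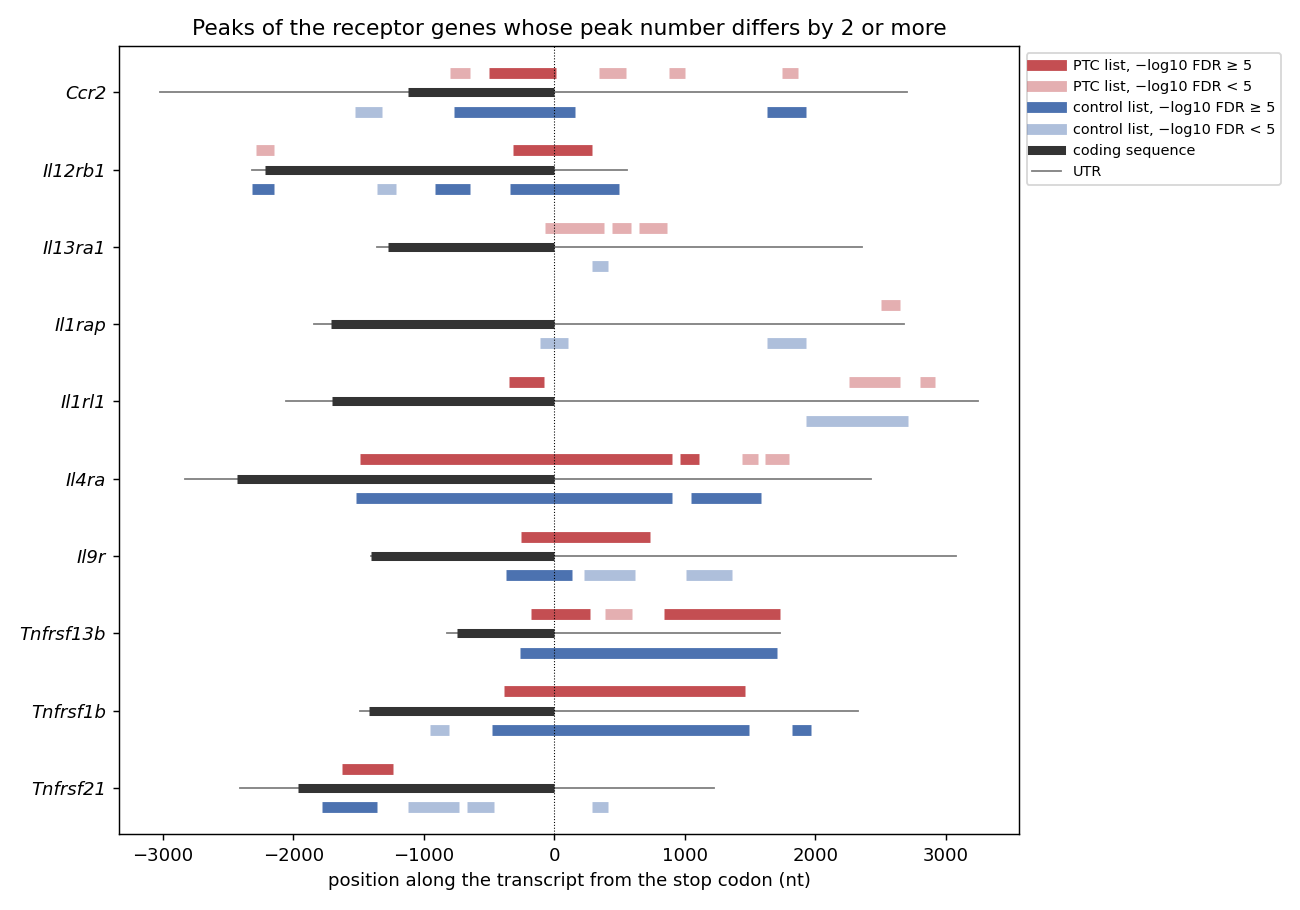
Peaks of the 10 receptor genes whose peak number differs by 2 or more, drawn along the transcript in nt from the stop codon, with PTC peaks (red) above and control peaks (blue) below each transcript; pale bars have a −log10 FDR under 5, and 1 control peak of Il1rap, on another transcript of that gene, is not drawn. The 3 PTC peaks of Tnfrsf13b lie along the single control peak, while 2 further control peaks of Il12rb1 lie in its coding sequence and 3 of Tnfrsf21 lie downstream of the shared peak.

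The 9 genes of the interleukin-1, interleukin-18 and interleukin-17 type had 13 PTC and 17 control peaks. In the PTC list only there was 1 (8.24% of all listed genes) and in the control list only there were 2 (12.5%). This was the most among the families, but each of these genes rested on the 1 weak peak given above. Il17ra, the shared chain of interleukin-17 receptors, was its strong member: 1 peak of 2518 nt in each list, shifted by 90 nt, with a −log10 FDR of 121 for PTC and 73.4 for control and a fold enrichment of 10.2 in both. Both chains of the interleukin-18 receptor were in both lists. Il18r1 had 4 PTC and 5 control peaks, the strongest at 13.7 for PTC and 5.67 for control, and Il18rap had 2 PTC and 3 control peaks, the strongest at 15.6 for PTC and 6.55 for control. Il1rap, the partner chain of interleukin-1 family receptors, had 1 PTC peak of 2.04 and 3 control peaks of up to 3.62, none of which overlapped. Of the control peaks, 1 shares 76 nt with a peak of Gm20319 on the other strand. Il1rl1 had 3 PTC peaks of up to 5.00 and 1 control peak of 3.58, and Il1rn had 1 PTC peak of 3.87 and 2 control peaks of up to 5.13.

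All 4 interferon receptor chains were in both lists, with 11 PTC and 12 control peaks, and each had a peak containing the stop codon in both. Ifnar1, a chain of the receptor for type I interferons, had the same 2491 nt peak over 3 exons in both lists (chr16:91501749-91507381), with −log10 FDR of 126 for PTC and 71.7 for control. Around it the lists differed. The PTC list added 2 peaks upstream, at 13.7 and 1.86, and the control list added 3 in coding sequence, at 4.95, 3.31 and 2.89, and none of these 5 overlapped. Its partner Ifnar2 had its strongest peak at 54.4 for PTC and 32.5 for control, with 98.3% of the PTC length under control peaks. A weaker upstream peak of Ifnar2 overlaps peaks of Gm21970 on the same strand. For interferon gamma, Ifngr1 had 4 peaks in each list, of which 3 overlapped, with the strongest at 127 for PTC and 85.3 for control, and Ifngr2 had 2 in each list, both overlapped, with the strongest at 55.5 for PTC and 46.2 for control.

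The 10 chemokine receptors, G-protein-coupled receptors that guide cells along chemokine gradients, were all in both lists, with 20 PTC and 17 control peaks. Cxcr6, the receptor for CXCL16 on tissue-homing T cells, had 1 peak in each list, 1842 nt for PTC and 1782 nt for control, which takes up nearly its whole transcript of 1897 nt. It reached a −log10 FDR of 98.1 for PTC and 52.1 for control. Cxcr5, which brings cells to B cell follicles, reached 53.8 for PTC and 80.9 for control, Ccr4 55.5 for PTC and 35.3 for control, and Ccr8 26.0 for PTC and 42.5 for control. Ccr6, the receptor for CCL20, had 2 peaks in each list and 19.6 in both. Ccr1 reached 39.9 for PTC and 5.74 for control, but its 1 PTC peak overlapped both of its 2 control peaks. They covered 1670 nt for PTC and 1671 nt for control, with 91.1% of each shared, so the lists differ here in how a stretch was divided.

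Ccr2, the receptor for CCL2, had 5 PTC and 3 control peaks, but only 1 PTC peak and 2 control peaks were strong. The strong PTC peak, at 43.5, fell within the control peak of 928 nt at 33.1, and a second shared peak, in the 3' UTR, had 2.75 for PTC and 7.02 for control. At a −log10 FDR of at least 5 the PTC count is therefore 1 below the control count, not 2 above it. Of the 50-base stretches of its peaks 7.08% also occur in transcripts elsewhere, so some reads could be misplaced. Ccr3 and Cxcr2, receptors best known on eosinophils and neutrophils, had 1 weak peak in each list at different places, at 2.62 for PTC and 2.11 for control in Ccr3 and at 3.48 for PTC and 1.75 for control in Cxcr2. With Il1rap they were the 3 of 50 genes without any overlapping pair (6.00%, against 5.28% of all genes in both lists).

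The 15 TNF receptor genes had 30 PTC and 34 control peaks, with 14 genes in both lists. Tnfrsf1b, the second TNF receptor and a costimulator on T cells, carried the second strongest PTC peak of the set at 265, and the control peak at the same place reached 141. It had 1 PTC peak, which lay wholly under the main control peak, and 2 further control peaks at 6.29 and 4.48. With peaks below 4-fold enrichment left out, PTC and control had 1 peak each. Tnfrsf1a, the TNF receptor with a death domain, had 1 peak at the stop codon in each list, at 50.7 for PTC and 15.2 for control. Tnfrsf18 (GITR), a costimulator high on regulatory T cells, had its strongest peak in exon 1 at 44.2 for PTC and 28.0 for control. That peak shares 272 nt in the PTC list with a peak of the antisense gene Gm16008, so its gene is uncertain. Tnfrsf25 (DR3) reached 22.7 for PTC and 13.6 for control, Tnfrsf8 (CD30) 22.1 for PTC and 22.0 for control, and Tnfrsf14 (HVEM) 10.7 for PTC and 9.29 for control.

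Receptors for B cell survival factors gave peaks of middle strength. Tnfrsf13b (TACI) had 3 PTC peaks and 1 control peak. Of the length of the 3, 98.1% lay under that control peak of 1970 nt, and 77.4% of the control length lay under PTC peaks. The strongest reached 34.4 for PTC and 28.7 for control. Tnfrsf13c (the BAFF receptor) had 2 PTC and 3 control peaks, the strongest at 43.6 for PTC and 58.9 for control. Beside them stand the B cell markers given above, and their part was not tested.

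Tnfrsf21 (DR6) showed the largest difference in number among the receptors in both lists, with 1 PTC and 4 control peaks. The shared peak in exon 2 had 5.95 for PTC and 11.7 for control, and the 3 further control peaks had 4.07, 3.33 and 1.53, so that each list held 1 strong peak. Tnfrsf10b, the mouse TRAIL death receptor, had 2 peaks in each list, the strongest at 7.55 for PTC and 11.4 for control. Its peaks covered 451 nt for PTC and 1350 nt for control, and 7.83% of their 50-base stretches also occur in Gm15574. Tnfrsf11a (RANK) had 2 PTC peaks and 1 control peak, with 14.3 for PTC and 4.36 for control. Tnfrsf22 and Tnfrsf23, mouse decoy receptors for TRAIL, share sequence with each other and other genes (21.1% and 32.2% of 50-base stretches), and 6 of the Tnfrsf22 peaks in each list overlap another peak of the same list, so their numbers are uncertain. The strongest Tnfrsf23 peak had 3.24 for PTC and 4.15 for control. Tnfrsf26 had 3 peaks in each list and reached 23.9 for PTC and 16.3 for control.

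Of the 10 strongest receptors of each list, 8 were the same: Il2rb, Il4ra, Il21r, Tnfrsf1b, Il2rg, Il10ra, Ifngr1 and Il17ra. Ifnar1 and Cxcr6 completed the PTC group, and Il12rb2 and Cxcr5 the control group. Il12rb2, at 97.9, stood just below Cxcr6, at 98.1, in the PTC list. At least 1 peak of −log10 FDR 5 or more was present in 43 of 53 listed receptors for PTC (75.9% of all genes in the PTC list) and in 41 of 52 for control (73.0% of all genes in the control list). By peaks, 66 of 109 reached 5 in the PTC list (60.6%, against 59.8% of all PTC peaks) and 68 of 116 in the control list (58.6%, against 53.4% of all control peaks).

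Receptor peaks sat toward the 3' end. The midpoint was in the 3' UTR for 61.5% of PTC peaks (interval 51.7 to 70.6, against 49.5% of all PTC peaks in protein-coding genes) and 55.2% of control peaks (45.7 to 64.4, against 45.9%). It was in coding sequence for 34.9% of PTC peaks (against 41.0%) and 43.1% of control peaks (against 42.2%). Within 200 nt of the stop codon lay 31.2% of PTC midpoints (22.7 to 40.8, against 21.1%) and 17.2% of control midpoints (10.9 to 25.4, against 15.7%). The stop codon was inside 37.6% of PTC peaks (against 25.1%) and 31.0% of control peaks (against 19.9%). Peaks of a gene are not independent, so these intervals are too narrow.

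The last exon held the strongest peak of 49 of 53 receptors in the PTC list (92.5%, against 74.6% of protein-coding genes) and 48 of 52 in the control list (92.3%, against 70.5%). The exceptions were the same 4 genes in both lists: Il2rg and Tnfrsf18 at the first exons, Tnfrsf21 in exon 2 of 6 and Tnfrsf11a in exon 9 of 10. Over all receptors the midpoint of the strongest peak was in the 3' UTR in 29 of 53 for PTC (54.7%, against 52.1% of protein-coding genes) and 28 of 52 for control (53.8%, against 49.9%), and in coding sequence in the other 24 for PTC (45.3%, against 42.5%) and 24 for control (46.2%, against 43.6%). It was in coding sequence in 7 of 10 chemokine receptors for PTC and 8 of 10 for control, whose coding sequence lies mostly or wholly in the last exon. Among TNF receptors it was in the 3' UTR in 10 of 15 for PTC and 9 of 14 for control. With so few genes per family no test was made.

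**Figure D5:**
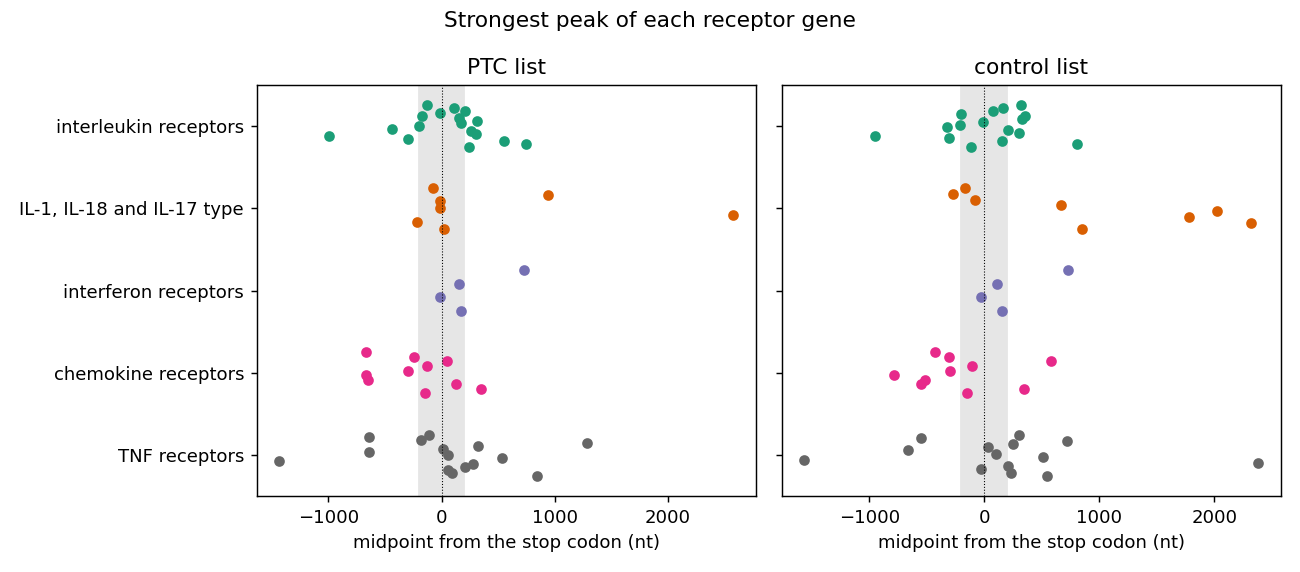
Distance in nt from the stop codon to the midpoint of the strongest peak of each receptor gene, in the PTC list (left) and the control list (right), 1 row per family; negative values lie upstream and the grey band marks 200 nt on each side. Chemokine receptors lie mostly left of 0, more of the other receptors right of 0 than left, and the outlying points at the left are Tnfrsf21 and Il2rg.

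In size and enrichment the PTC receptor peaks were near all PTC peaks at the median. Control receptor peaks were wider and had a higher fold enrichment than all control peaks at the median, but the intervals below do not set them clearly apart. Their median width was 299 nt for PTC (270 nt over all PTC peaks) and 330.5 nt for control (268 nt over all control peaks), and the median −log10 FDR was 6.56 for PTC (6.61 over all) and 6.53 for control (5.47 over all). The median fold enrichment was 3.90 for PTC (3.66 over all) and 4.67 for control (3.65 over all). For control receptor peaks the interval of the median fold was 3.59 to 5.48, which holds the value over all control peaks. That of the median width was 270 to 448 nt, which begins just above it. GGACT was present in 49 of 104 PTC peaks that lie wholly in a transcript (47.1%, against 37.0%) and in 46 of 109 control peaks (42.2%, against 33.8%). When only the 50 nt on each side of the midpoint were searched the share was 15.4% for PTC (against 13.0%) and 19.3% for control (against 11.5%).

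Filters on strength changed which genes stood in 1 list. With peaks of −log10 FDR of at least 5, 40 of the 44 remaining receptors were in both lists (79.5% of all genes under this filter). Il1rl1, Il20rb and Tnfrsf11a were in the PTC list only (9.86% of all genes) and Il1rn was in the control list only (10.6% of all genes). Each of these genes had peaks in both full lists, and values near the cut decided. The strongest PTC peaks of Il1rl1 and Il20rb had 5.00 and 5.43. In the control list the strongest Il1rn peak had 5.13 and that of Tnfrsf11a 4.36. With a fold enrichment of at least 4, 36 of 45 were in both, against 59.4% of all genes under this filter. The PTC list only held 4 (Il11ra1, Il1r1, Il21r and Tnfrsf11b, against 16.0% of all genes). The control list only held 5 (Ifngr2, Il17rb, Il17rc, Il18r1 and Il27ra, against 24.6% of all genes). Il21r, Ifngr2, Il18r1 and Il27ra had peaks in both full lists. The strongest control peak of Il21r had a fold of 3.80, just under this filter. With the control list cut to the length of the PTC list by FDR, 45 of 54 were in both, against 78.8% of all genes. In the PTC list only there were 8 (13.6% of all genes), and 1, Il17rb, was in the control list only (7.53% of all genes). No receptor was in the PTC list only, or in the control list only, under both the FDR and the fold filter.

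Genes that act with the receptors were counted in the same way, where 79.2% of all listed genes were in both lists. Of 32 receptor chains outside the rule 16 were in neither list and 14 were in both, and Csf3r, the receptor for granulocyte colony-stimulating factor (6.54), and Ltbr, the lymphotoxin beta receptor (7.40), were in the PTC list only. All 28 adaptors and kinases below TNF and interleukin-1 receptors were listed and 27 were in both lists. Irak4, a kinase of the interleukin-1 receptor complex, was in the PTC list only, at 3.79. Of those 27, 18 had fewer PTC than control peaks, 3 had more and 6 had the same number, where 41.6% of all genes in both lists had fewer, 16.0% had more and 42.4% had the same number. Ripk1, the kinase recruited to the TNF receptor, had 2 PTC and 6 control peaks, and Traf6, a ubiquitin ligase of interleukin-1 signalling, had 4 PTC and 8 control peaks. Tank, which binds TRAF proteins, went the other way with 7 PTC and 4 control peaks.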

How the data were processed

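m6A immunoprecipitates and inputs of PTC-treated and control T cells (4 groups of 2 samples) are represented by 1 deposited peak list per condition. BWA 0.7.12, MACS2 2.1.0 and build GRCm39 are named, per the submitters' processing notes. For the peak caller's settings, its threshold and any pooling of samples, the answer is not given in the sources used here. All member peaks, and 99.8% of the peaks of each list, lay inside the gene of the same identifier in GENCODE M21, so coordinates were read as GRCm38, from 1. Per the file headers each peak carries the authors' fold enrichment, a linear ratio, and a log10 FDR, used here as −log10 FDR; both describe and filter peaks within a list. A summary in the authors' deposited table lists 33.03% of reads in peaks for PTC and 36.07% for control, and counts of 15855 and 19420 peaks, lower than the lines of the lists. Depth is unknown.

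Overlap means that exon blocks of a peak shared at least 1 bp with a peak of the other list on the same strand. Midpoints of the exon blocks gave the region over all transcripts of the gene, with coding sequence taken first. Exon and distance from the stop codon were read in the gene's main transcript where it held at least 50% of the peak. Otherwise the transcript holding most of the peak was used. GGACT was searched on the transcript strand. Intervals of shares are exact Clopper-Pearson and those of medians are taken from the ranked values. Both are at 95% and cover counting error only. The functions were tested on simulated data. Python 3.11.15, numpy 2.4.6, pandas 2.3.3, scipy 1.17.1 and matplotlib 3.10.9 were used. No test between conditions could be made from 1 list each. Alternatives were a −log10 FDR of at least 5, a fold of at least 4, lists of equal length, other overlap and region rules and, chosen after seeing the data, merging of overlapping peaks, leaving out genes that share sequence, and another choice of stop codon. Named with values are the genes in 1 list only, the 10 strongest of each list, those whose peak number differs by 2 or more, those without an overlapping pair, and the other chains of their receptors; the remaining members are given more briefly. The members and all lists were chosen with earlier results of these data known. Of the members, 1 chemokine receptor gene is counted but not reported here by name.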

Additional observations from a re-analysis of the deposited data

How the results depend on the processing

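No paired analysis was possible because the lists hold no values per sample; for the same reason no replicate could be left out. Of 109 values of the main results recomputed under an alternative, 73 stayed within their interval, or within 1.5 times for counts, and 36 did not; the cause was not tested except where a filter removes peaks by its construction. With peaks of −log10 FDR of at least 5, 66 PTC and 68 control peaks remained. At this filter 1 gene was in the control list only (10.6% of all genes) and 8 genes had fewer PTC peaks. GGACT was in 61.9% of PTC and 62.9% of control peaks. The median width was 539 nt for PTC and 538.5 nt for control, and the median −log10 FDR was 22.4 for PTC and 15.9 for control. With a fold enrichment of at least 4, 53 PTC and 66 control peaks remained. Under this filter 5 genes were in the control list only (24.6% of all genes), 6 had more and 11 had fewer PTC peaks. Of the peaks left, 66.0% for PTC and 56.1% for control were overlapped, and GGACT was in 62.3% of PTC peaks. The median PTC width was 539 nt, and the median fold was 7.03 for PTC and 7.47 for control. With the control list cut to the length of the PTC list, 8 genes were in the PTC list only (13.6% of all genes), 1 was in the control list only (7.53% of all genes), 9 had fewer PTC peaks and 80.6% of control peaks were overlapped. Overlap fell to 55.0% for PTC and 52.6% for control when 50% of each peak had to be shared, and to 46.8% for PTC and 44.0% for control for midpoints within 100 bp. Any exon block reaching the 3' UTR gave 78.9% for PTC and 70.7% for control, a distance of 100 nt from the stop codon gave 14.7% for PTC and 7.76% for control, and peaks containing the stop codon made up 31.0% for control. GGACT in the 50 nt on each side of the midpoint was in 15.4% of PTC (against 13.0%) and 19.3% of control peaks (against 11.5%). Under the remaining settings no values over all features were computed for the GGACT, overlap, 3' UTR and distance shares. The same holds for the medians and for the genes with more or fewer PTC peaks. Whether those shifts are particular to receptors was not tested. The PTC minus control peak number of Ccr2, 2 in the full lists, was -1 at a −log10 FDR of at least 5 and -2 at a fold of at least 4; of the other 62 values for single genes none changed sign, but the difference fell to 0 for Il4ra, Il9r and Tnfrsf21 at a −log10 FDR of at least 5 and for Tnfrsf1b at a fold of at least 4. The lists give no depth, so a peak missing from a list may be one that could not be detected.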

Other observations

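Genes that act below chemokine receptors were in the control list only about as often as all listed genes, at 3 of 25 listed, against 12.5%. Of 26 such genes 25 were listed and 22 were in both lists, 5 of them with more PTC peaks, 11 with fewer and 6 with the same number. Over all genes 79.2% of those listed were in both lists, and of these 16.0% had more PTC peaks, 41.6% fewer and 42.4% the same number. Only the control list held Grk6, a kinase that desensitises chemokine receptors, with 5 peaks of −log10 FDR up to 17.8, Gnb2, a G-protein beta subunit, with 1 peak of 5.53, and Rac1, a GTPase of cell movement, with 2 peaks of up to 4.01. Genes in the control list only made up 12.5% of all listed genes. Gna13, a G-protein alpha subunit, had 3 PTC and 7 control peaks, and Dock8, which activates a GTPase in migrating T cells, had 2 PTC and 5 control peaks. Gnai3 and Pik3cg went the other way, each with 5 PTC and 3 control peaks. Rgs1, which shortens G-protein signals in lymphocytes, was strong in both lists, at 302 for PTC and 159 for control, with 6 PTC and 5 control peaks. Among the 8 receptors left out by the rule, all were in both lists, 2 with more PTC peaks, 3 with fewer and 3 with the same number. These values come from 1 list per condition and have no replicate check.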
